A study of Mus musculus with 231 samples.

Results

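The 4 mature microRNAs (miRNAs) named miR-126 in the mouse were followed, with the balance between them as the measure: mmu-miR-126a-3p, mmu-miR-126a-5p, mmu-miR-126b-5p and mmu-miR-126b-3p. They were chosen by name, and each was present in all 3 deposited tables, as 4 of 1863 mature miRNAs in the training counts, 4 of 1895 in the training CPM (counts per 1000000, scaled by the authors) and 4 of 1817 in the validation CPM. Small RNA was sequenced from mononuclear cells of peripheral blood (PBMC), drawn from C57BL/6 mice in a training and a validation cohort. CM mice carry the Cbfb-MYH11 fusion, the product of inv(16) in acute myeloid leukemia, as a conditional Cbfb 56M knock-in switched on by Mx1-Cre, which responds to interferon and is not limited to blood cells. CM and Ctrl mice of both cohorts were given poly(I:C) at 14 mg/kg in 7 doses, starting at 6 to 8 weeks of age. All CM mice were labelled CHW. The Ctrl mice were labelled CW (4 training and 3 validation mice), HW (2 and 2) or WT (1 and 1), codes that the labels do not explain, and the sources differ on whether littermate controls could carry the 56M allele without Cre.

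Training blood was taken before induction (month 0) and monthly up to month 10 from 7 CM mice (53 libraries) and 7 Ctrl mice (76 libraries), and 2 CM libraries carried the unexplained label T6p5. Validation blood was taken from 10 CM mice (60 libraries) and 6 Ctrl mice (42 libraries) at points labelled 1 to 7 and L, and point L held 5 CM libraries only. The training libraries held 1792809 to 7958411 counts, with a median of 4437464. Among validation libraries, the 12 of point 5 held 1645456 to 5445215 reads, whereas the other 90 held 1744 to 76906. The numbers in the sample titles of the training mice 3334 (CM) and 3335 (Ctrl) run as if they had been exchanged part of the way through the series, and results that rest on them are given with and without these mice. Cell type markers were looked up in the training counts. All 5 lymphocyte, 5 myeloid, 5 erythroid, 4 platelet, 5 vessel wall and 7 stem and progenitor miRNAs were present, and none had a median under 1 CPM. Since markers of every listed type were present, this does not test the labelled tissue. A bulk library cannot tell fewer cells of a type from less RNA per cell.

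A miRNA gene is transcribed into a hairpin, from which the enzyme Dicer cuts a short duplex. The strand from the 5′ side of the hairpin is called 5p and the strand from the 3′ side 3p. One of them is usually loaded into the silencing complex and kept while the other is degraded, and for miR-126 both have been described as functional. miR-126 lies in an intron of Egfl7, which encodes a factor secreted by endothelial cells, and it is known for its high level in the vessel wall, in platelets and in blood stem and progenitor cells.

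The mouse annotation lists a second hairpin, Mir126b, on the opposite DNA strand of the same place. The mature sequences and hairpins of RefSeq (build GRCm38.p6) are shown because the ratios below turn on how these sequences lie on each other. Capitals in a mature sequence mark the seed, bases 2 to 8, which pairs with targets.

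miR-126a-3p, chr2:26591402-26591423, plus strand: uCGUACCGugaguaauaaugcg

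miR-126b-5p, chr2:26591399-26591420, minus strand: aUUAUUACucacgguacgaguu

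miR-126b-3p, chr2:26591363-26591385, minus strand: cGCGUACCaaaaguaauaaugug

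The hairpins follow, with the mature sequences listed for them in capitals.

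Mir126a, chr2:26591357-26591429, plus strand: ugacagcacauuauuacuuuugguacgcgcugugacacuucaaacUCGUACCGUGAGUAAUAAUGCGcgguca

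Mir126b, chr2:26591363-26591420, minus strand: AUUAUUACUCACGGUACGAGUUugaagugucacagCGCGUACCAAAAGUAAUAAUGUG

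Both hairpins lie within Egfl7 (chr2:26581083-26592682). The 58 bases of Mir126b are the exact reverse complement of 58 of the 73 bases of Mir126a. A run of 19 bases of miR-126b-5p is the reverse complement of miR-126a-3p, so these RNAs come from opposite DNA strands of the same bases. The reverse complement of miR-126b-3p fills positions 7 to 29 of the Mir126a hairpin, on the 5p side. On the RNA itself, miR-126b-3p shares with miR-126a-3p a run of 10 bases, AGUAAUAAUG, which starts at base 11 of miR-126a-3p and base 12 of miR-126b-3p. The 3 seeds differ, and none of them is carried by another mature miRNA in the table. The RefSeq table held 1621 of the 1910 mature names in the deposited files.

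Among the training counts, made by the authors with mirTOP, miR-126a-3p was the more abundant strand in every library. miR-126a-3p held 83 to 13328 counts with a median of 708, and miR-126a-5p held 7 to 8604 with a median of 385. The 5p share of the miR-126a counts was 28.3% to 43.3% in the 53 CM libraries, with a median of 36.8%. In the 76 Ctrl libraries it was 7.78% to 44.9%, with a median of 33.1%. The ranges overlapped at the top, and low shares were mostly in Ctrl blood: 23 of 76 Ctrl libraries and 3 of 53 CM libraries were under 30%.

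**Figure D1:**
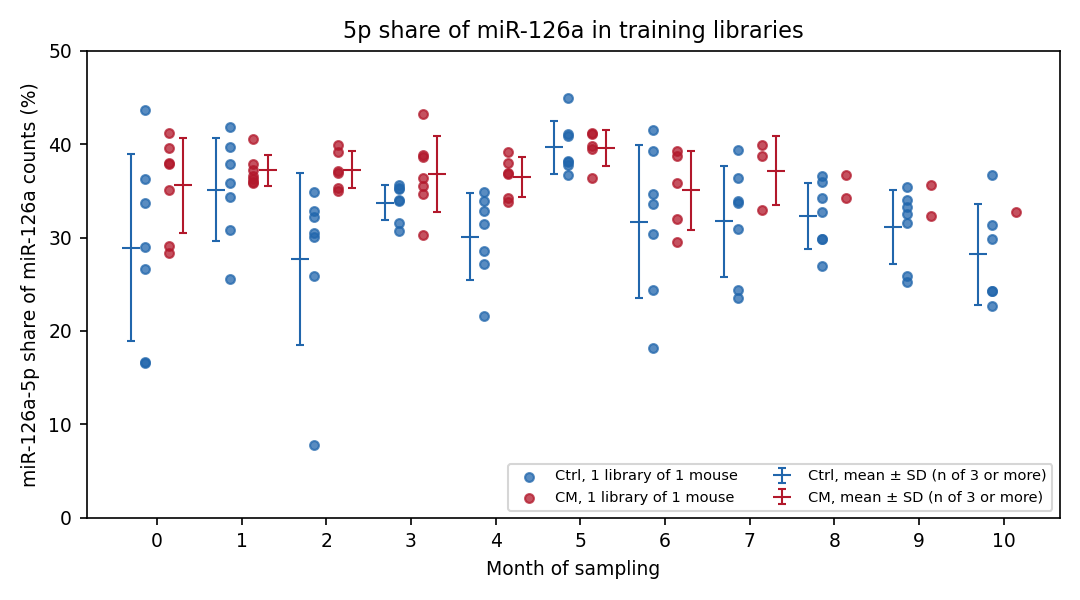
The y axis gives miR-126a-5p as a percentage of miR-126a counts, and the x axis the month of sampling. Each point is 1 library of 1 mouse, bars are means with SD for groups of 3 or more, and the 2 libraries labelled T6p5 are not drawn. CM libraries (red) stay between 28.3% and 43.3%, whereas Ctrl libraries (blue) reach down to 7.78%.

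To compare the groups, the log2 ratio of 5p to 3p counts was taken in each library (0.5 added to both counts) and CM and Ctrl mice were compared month by month with an exact two-sided permutation test, adjusted over 7 months by Benjamini-Hochberg. Both strands come from 1 library, and this ratio was taken without scaling. The same animals were sampled each month, so the months are not independent of each other. Before induction the mean log2 ratio was −0.86 ± 0.33 (SD, n = 7) in CM mice and −1.36 ± 0.74 (n = 7) in Ctrl mice, a difference of 0.50 that did not pass (exact permutation p = 0.138, adjusted p = 0.241).

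At month 2 the 5p share was higher in CM blood. In the 6 CM libraries it was 35.0% to 39.9%, with a median of 37.0%, and in the 7 Ctrl libraries 7.78% to 34.9%, with a median of 30.5%, so the groups did not overlap. The mean log2 ratio was −0.75 ± 0.12 (SD, n = 6) in CM mice and −1.49 ± 0.90 (n = 7) in Ctrl mice, a difference of 0.73 (exact permutation p = 0.00466, adjusted p = 0.0265). The lowest Ctrl library, that of mouse 3349, held 7 counts of miR-126a-5p beside 83 of miR-126a-3p and had the smallest total of the training cohort, 1792809 counts. Its share of 7.78% has an exact 95% binomial interval, which covers counting error only, of 3.18% to 15.4%. Without this library the difference was 0.40, and the 6 CM mice were again above the 6 other Ctrl mice (exact permutation, adjusted p = 0.0152). The library of mouse 3349 held 292681 CPM of summed myeloid markers, the highest of the training cohort, and 4458 CPM of stem and progenitor markers. The other Ctrl libraries of month 2 held 111080 to 135305 CPM and 12173 to 13902 CPM of these. The summed erythroid markers were 15036 to 48982 CPM in CM libraries and 13364 to 27469 CPM in Ctrl libraries of month 2. The part of these marker sums in the ratio was not tested. The G number of the titles, which the labels do not explain, was shared by both groups in 2 cases at month 2, with 2 CM and 3 Ctrl libraries. Within these strata the difference was 0.50, and the 6 possible regroupings allow no p under 0.167 (exact permutation, adjusted p = 0.733), so this comparison could not have passed. The call was lost when any 1 of the 6 CM mice was left out, with adjusted p up to 0.119 by exact permutation, and with the deposited CPM in place of the counts (adjusted p = 0.0591).

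At month 4 the 5p share was again higher in CM blood. The 6 CM libraries were at 33.8% to 39.2% with a median of 36.9%, and the 7 Ctrl libraries at 21.6% to 34.9% with a median of 31.5%. A total of 4 CM libraries lay above every Ctrl library, and 5 Ctrl libraries lay below every CM library. The mean log2 ratio was −0.80 ± 0.13 (SD, n = 6) against −1.23 ± 0.33 (n = 7), a difference of 0.43 (exact permutation p = 0.00758, adjusted p = 0.0265). No G number held mice of both groups at month 4, so there that number and the group cannot be told apart. Stem and progenitor marker sums were 7740 to 14410 CPM in CM and 13456 to 18490 CPM in Ctrl libraries of that month, and lymphocyte marker sums 18375 to 82695 CPM and 29948 to 116170 CPM. Their part in the ratio was not tested. Without mice 3334 and 3335 the difference at month 4 was 0.43 (exact permutation, adjusted p = 0.0505) and that at month 3 was 0.27 (adjusted p = 0.0379). The month 4 call was lost when any 1 of the 6 CM mice was left out, with exact permutation adjusted p up to 0.0972.

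The other months did not pass. Months 1, 3, 5 and 6 gave differences of 0.14, 0.19, −0.0043 and 0.25, with adjusted p of 0.483, 0.238, 0.957 and 0.483 by exact permutation. The direction at month 3 turned within the G number, where the 1 stratum of 1 CM and 1 Ctrl library gave −0.35, a value that no test could pass. These were CM mouse 3334, whose title numbers run as if exchanged, and Ctrl mouse 3339. Without mice 3334 and 3335 the month 3 difference was 0.27, as given above. At month 5 the Ctrl libraries had 5p shares of 36.7% to 44.9%, beside 36.4% to 41.1% in CM blood. With sex as a stratum the differences were 0.99 at month 2 and 0.40 at month 4 (exact permutation, adjusted p = 0.0222 and 0.0375).

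Taking 1 value per mouse over months 1 to 6 gave the same direction. The geometric mean ratio of miR-126a-5p to miR-126a-3p counts was 0.566 in CM mouse 3334, 0.663 in 3336, 0.580 in 3338, 0.602 in 3341, 0.594 in 3357, 0.579 in 3368 and 0.541 in 3370. In Ctrl mice it was 0.539 in 3335, 0.506 in 3339, 0.587 in 3340, 0.404 in 3342, 0.498 in 3346, 0.393 in 3349 and 0.470 in 3350. The groups overlapped, since Ctrl mouse 3340 lay above 4 CM mice, and 3 CM mice lay above every Ctrl mouse. The mean log2 ratio differed by 0.29 (−0.76 ± 0.09 against −1.06 ± 0.21, SD, n = 7 and 7, exact permutation p = 0.00466, adjusted p = 0.00932 over 2 tests). Leaving out each mouse in turn kept the difference between 0.24 and 0.34. Within each G number, pooled over months 1 to 6, CM minus Ctrl was 0.03 in G1, 0.53 in G2, 0.25 in G3, 0.67 in G4, 0.30 in G5, −0.0019 in G6 and 0.24 in G7, given as values because mice recur across months. The slope of the ratio over months 0 to 6 was 0.016 per month in CM and 0.053 in Ctrl mice (exact permutation p = 0.441, adjusted p = 0.441).

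No change of the strand ratio over time passed the test in either group. In CM mice the mean log2 ratio was −0.86 at month 0, −0.76 at month 1, −0.78 at month 3 and −0.79 in the last library of each mouse. None of the 3 differences from month 0 (0.11, 0.08 and 0.07) passed, nor did those in Ctrl mice at months 1, 3 and 6 (0.47, 0.39 and 0.22), where the adjusted p was 0.616 in each case by exact permutation. These tests permuted libraries and ignored that the same mice were sampled at both times. With the mouse as a block, an exact sign-flip test gave adjusted p from 0.5625 to 0.672, so none passed there either. The level of both miR-126a strands differed between the groups at months 1 to 3. At month 1 the CM minus Ctrl difference in log2(CPM + 1) was 1.65 for the 3p strand and 1.70 for the 5p strand (limma adjusted p = 3.27e-06 and 3.09e-06). The 3p strand did not pass at months 4, 5 and 6 (limma adjusted p = 0.0875, 0.0895 and 0.814), nor did the 5p strand at months 5 and 6 (0.0879 and 0.814). The CM library highest in miR-126a-3p, mouse 3341 at month 6, had 5388 deposited CPM of it and a 5p share of 39.2%, and the 7 CM libraries highest in miR-126a-3p had 5p shares of 36.7% to 39.2%.

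**Figure D2:**
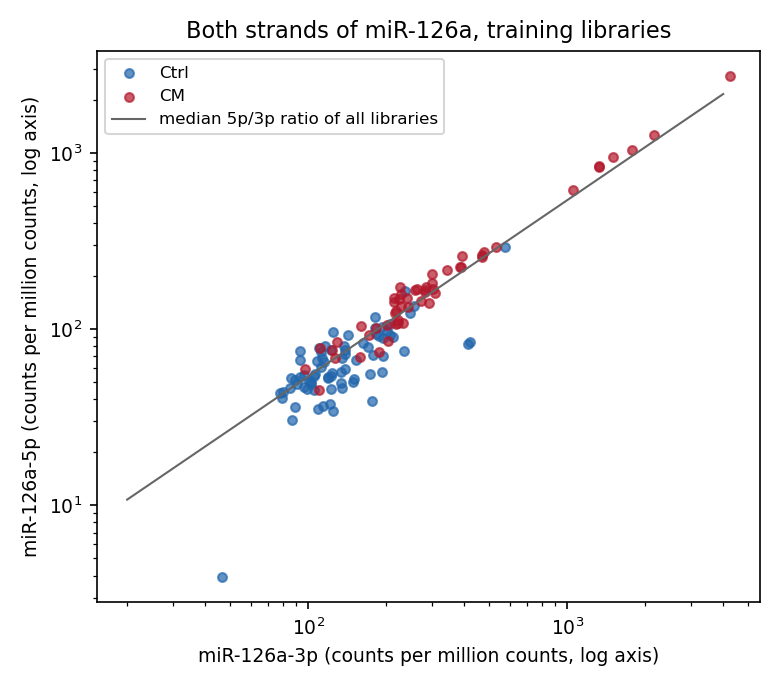
miR-126a-5p against miR-126a-3p, both in counts per 1000000 counts on log axes, with 1 point per training library (CM red, Ctrl blue). The line marks the median 5p/3p ratio of all libraries, 0.539. CM libraries lie along the line up to the highest level, while the Ctrl library at the lower left (mouse 3349, month 2) and the pair to the right of the line (mice 3340 and 3342, month 0) fall below it.

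Over the 7 mice of each group, the mean ratio and the mean log2 level of both strands together were compared over months 1 to 6. Pearson's r was 0.20 in CM mice (exact permutation p = 0.693) and 0.28 in Ctrl mice (exact permutation p = 0.542). Spearman's rho was 0.54 in CM and 0.14 in Ctrl mice (exact permutation p = 0.236 and 0.783), and the adjusted p of all 4 relations was 0.783. Without the 2 mice farthest from the median level, r was 0.46 in CM and 0.81 in Ctrl mice.

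The spread of the ratio differed between the groups as well. The SD of the log2 ratio within months 0 to 6 was 0.19 in CM and 0.50 in Ctrl libraries. The log2 ratio of these SDs was 1.36 for miR-126a against a median of 0.17 over the hairpins compared, of which 1 had a larger value. The Ctrl SD was largest at month 2 (0.90, or 0.21 without mouse 3349) and month 0 (0.74). At month 3 the order turned, with 0.25 in CM and 0.13 in Ctrl mice. Ctrl libraries also held fewer counts of miR-126a-3p (147 per 1000000, against 436 in CM libraries), and the part of counting error in the spread was not tested. In few Ctrl libraries the strands moved apart. At month 0 the Ctrl mice 3340 and 3342 had 1846 and 1988 counts of miR-126a-3p beside 370 and 395 of miR-126a-5p, giving 5p shares of 16.7% and 16.6% (exact 95% binomial intervals 15.2% to 18.3% and 15.1% to 18.1%). miR-126a-3p was at 421 and 415 counts per 1000000 in these libraries and at 88.6 to 195 in the other 5 Ctrl libraries, whereas miR-126a-5p, at 84.3 and 82.4, lay within the 36.2 to 96.3 of the others. Erythroid marker sums were 140066 and 243558 CPM there, beside a median of 66089 CPM over the 7 Ctrl libraries of month 0. Sums were higher still in CM mice 3336 and 3368 at month 1 (390509 and 340243 CPM), where CM shares were 35.9% to 40.6%. The libraries of mice 3340 and 3342 both carried the G number G5, which no other Ctrl library of month 0 did. The 1 CM library of G5 at month 0, mouse 3368, had the lowest CM share of that month, 28.3%. The part of erythroid markers or of the G number in the low shares was not tested. Without the libraries of mice 3340 and 3342 the difference at month 0 was 0.12 (exact permutation, p = 0.595).

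To place miR-126a among other miRNA genes, the 5p/3p ratio of each hairpin with both strands listed (720 hairpins) was tested with edgeR's quasi-likelihood test, with the library as a block, for hairpins with a mean of 10 counts or more on both strands. The miR-126a ratio did not pass the adjusted threshold of 0.05 over all hairpins in any month. At month 0 it differed by 0.51 ± 0.28 (SE, adjusted p = 0.377), and 0 hairpins (0%) were called, with 18 at an unadjusted p under 0.05 and 2 called by DESeq2. At month 1 it differed by 0.14 ± 0.15 (adjusted p = 0.512) while 33 hairpins (26.2% of those tested) were called. At month 2 it differed by 0.61 ± 0.29 (adjusted p = 0.142) and 18 (14.6%) were called. Without the Ctrl library of mouse 3349, the month 2 difference was 0.40 with an adjusted p of 0.0196, and 43 hairpins were called.

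At month 3 the miR-126a difference was 0.19 ± 0.13 (SE, edgeR adjusted p = 0.293) with 26 hairpins (21.5%) called. At month 4 it was 0.43 ± 0.17 (adjusted p = 0.472). miR-126a ranked 7 by p among the hairpins of that month, of which 0 (0%) were called, 10 had an unadjusted p under 0.05 and DESeq2 called 0. At month 5 it was −0.0050 ± 0.11 and at month 6 0.24 ± 0.27 (adjusted p = 0.971 and 0.877), with 0 hairpins (0%) called in both months, 23 and 7 at an unadjusted p under 0.05, and 2 and 0 called by DESeq2. In the last CM library against CM month 0, 54 hairpins (42.9%) were called, and miR-126a differed by 0.07 ± 0.15 (adjusted p = 0.728). At month 1 the miR-126a difference was −0.09 with DESeq2 (adjusted p = 0.685), so its direction there was not stable.

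The calls leaned to higher and lower 5p shares as follows, and that split moved with the scaling of the strand columns. With library totals as scale, 19 of the 33 calls of month 1 were higher and 14 lower in CM, against 21 and 4 with TMM (trimmed mean of M-values) and 10 and 34 with DESeq2. At month 2 the split was 10 and 8 against 9 and 1 with TMM, at month 3 it was 9 and 17 against 7 and 0, and in the last CM libraries 29 and 25 against 33 and 8. The median log2 difference over all hairpins was 0.01 at month 1, −0.02 at month 2 and −0.02 at month 4, and with TMM it was 0.28, 0.16 and 0.13. The miR-126a difference beside these TMM medians was 0.41, 0.81 and 0.57 (edgeR adjusted p = 0.237, 0.118 and 0.859).

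Of 31 hairpins listed as abundant in blood, 27 had both strands in the table and 25 or 26 were tested per comparison. Among them 0 were called at months 0, 4, 5 and 6, when 0% of all hairpins were. At month 1 it was 10 of 26, beside 26.2% of all hairpins tested, and at month 2 3 of 26, beside 14.6%. At month 3 it was 10 of 26, beside 21.5%, and in the last CM libraries 15 of 26, beside 42.9%. The most abundant was miR-21a, a miRNA raised in many cancers. Its difference of −0.17 at month 1 did not pass (edgeR adjusted p = 0.462), while that of month 3, −0.56, did (adjusted p = 0.0113). For miR-142a, made in blood cells generally, the log2 5p/3p ratio was higher in CM by 0.70 at month 1 and 0.92 at month 3 (edgeR adjusted p = 0.00673 and 0.00134). For miR-150, a miRNA of mature lymphocytes, the difference was −0.55 and −0.76 (adjusted p = 0.0141 and 0.00384). The calls of miR-21a and miR-150 were lost with TMM, where edgeR adjusted p was 0.350 for miR-21a at month 3 and 0.473 and 0.180 for miR-150. The called hairpins with the largest differences included miR-31 at month 1 (2.23) and month 2 (1.87), and miR-340 at months 1, 2 and 3 (−1.95, −1.55 and −1.47), of which miR-340 at month 3 was lost with TMM (edgeR adjusted p = 0.0510). With the G number as a term the named calls of months 1 and 2 kept their direction but were lost, with edgeR adjusted p from 0.0504 to 0.279. Only 4 CM and 6 Ctrl libraries at month 1, and 2 and 3 at month 2, shared a G number with the other group, so little was left to compare. At month 3 this was 1 CM and 1 Ctrl library, so the calls of that month could not be judged with this term.

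The ratios of miR-126b to miR-126a depended on which training table was read. In the counts miR-126b was almost absent: miR-126b-5p summed to 351 counts and miR-126b-3p to 265 over all training libraries, beside 154507 of miR-126a-3p and 86431 of miR-126a-5p. Each miR-126b strand had a median of 2 counts per library, a maximum of 12 (5p) or 11 (3p), and 24 libraries at 0. Per 1000 counts this was 2.27 of miR-126b-5p to miR-126a-3p and 3.07 of miR-126b-3p to miR-126a-5p. In the deposited CPM, whose values convert to whole reads, the same libraries held 28530 reads of miR-126b-5p, 62104 of miR-126b-3p, 144692 of miR-126a-3p and 61917 of miR-126a-5p.

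In the CPM table the reads of miR-126b-3p repeated those of miR-126a-5p. They were equal in 52 libraries, higher in 77 and lower in none. The excess had a median of 1 read and was at most 19, and the ratio ran from 1 to 1.03. As given above, miR-126b-3p is the reverse complement of positions 7 to 29 of the Mir126a hairpin, and whether reads were counted under both names cannot be told from the table. Whether counting used strand is not stated, so in this table miR-126b-3p cannot be told apart from miR-126a-5p. The CM minus Ctrl difference of its log2 ratio to miR-126a-5p lay between −0.0100 and 0.0022 over months 0 to 6, with adjusted p of 0.0734 or more by exact permutation.

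miR-126b-5p was different: it was a fraction of miR-126a-3p that varied between libraries. The ratio of their deposited CPM was 0.0864 to 0.329, with a median of 0.239 in CM and 0.234 in Ctrl libraries. Before induction the ratio of CPM was higher in CM mice, whereas the ratio of counts went the other way (−0.95, exact permutation, adjusted p = 0.208). In the CPM it was 0.210 in CM mouse 3334, 0.255 in 3336, 0.263 in 3338, 0.260 in 3341, 0.269 in 3357, 0.242 in 3368 and 0.329 in 3370, and 0.218, 0.234, 0.208, 0.206, 0.201, 0.194 and 0.190 in Ctrl mice 3335, 3339, 3340, 3342, 3346, 3349 and 3350. All CM mice except 3334 lay above every Ctrl mouse. The mean log2 ratio was −1.91 ± 0.19 (SD, n = 7) against −2.24 ± 0.10 (n = 7), a difference of 0.32 (exact permutation p = 0.00233, adjusted p = 0.0163 over 7 months), and it stayed between 0.27 and 0.37 with each mouse left out.

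After induction the groups did not separate by this ratio, with differences from −0.27 to 0.05 at months 1 to 6 (exact permutation, adjusted p = 0.763 or more). Low ratios went with high levels instead. The 8 training libraries highest in miR-126a-3p had ratios of 0.0864 to 0.161, of which 7 were CM libraries and 1 was Ctrl mouse 3335 at month 6 (0.144), beside 0.135 to 0.329 with a median of 0.238 in the other libraries. The lowest ratio, in CM mouse 3338 at month 4, came from 207 CPM of miR-126b-5p beside 2392 CPM of miR-126a-3p, and the highest libraries of mice 3341 (month 6) and 3334 (T6p5) had 752 beside 5388 CPM and 375 beside 3209 CPM. A ratio under 0.15 was found in 7 of 53 CM libraries and 1 of 76 Ctrl libraries. Since miR-126a-3p enters both this ratio and the level, the relation is a description without a test.

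**Figure D3:**
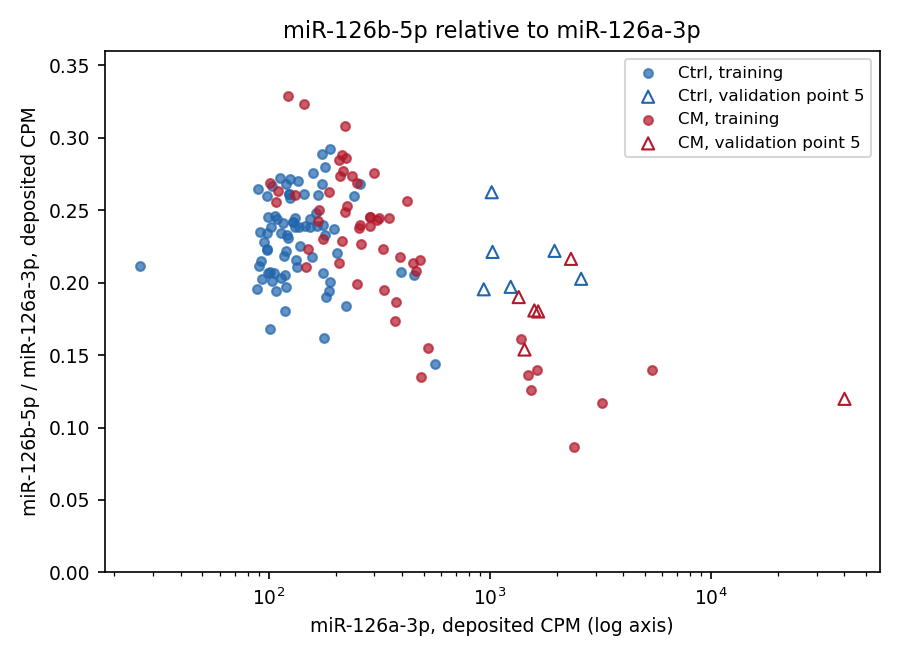
The ratio of miR-126b-5p to miR-126a-3p (linear y axis) against deposited CPM of miR-126a-3p (log x axis), with circles for training libraries and triangles for the 12 validation libraries of point 5 (CM red, Ctrl blue). Most training libraries lie around 0.238, while the libraries highest in miR-126a-3p lie at 0.0864 to 0.161, and the validation CM library farthest to the right at 0.120.

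Ratios between strands of the same name were taken from the deposited CPM, where miR-126b-3p cannot be told apart from miR-126a-5p. In CM libraries miR-126b-5p to miR-126a-5p had a median of 0.564 and miR-126b-3p to miR-126a-3p a median of 0.439. In Ctrl libraries the medians were 0.663 and 0.360. The 5p to 3p ratio within miR-126b had a median of 0.562 in CM and 0.662 in Ctrl libraries, and within miR-126a, in the same table, 0.438 and 0.357.

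The level of miR-126b-5p in the deposited CPM was higher in CM blood at months 1 to 4. At month 1 it was 63.6 to 107.9 CPM in CM and 19.1 to 32.1 CPM in Ctrl libraries, with no overlap, a difference of 1.66 ± 0.17 (SE) on the log2(CPM + 1) scale (limma, adjusted p = 3.27e-06), in a month when 24.9% of 574 miRNAs were called. At month 2, when 13.3% of 586 miRNAs were called, the difference was 1.55 ± 0.33 with a limma adjusted p of 0.00709. At month 3, when 22.1% of 580 were called, it was 1.81 ± 0.34 with an adjusted p of 0.00145. At month 4 only 4 of 594 miRNAs (0.673%) were called by limma, 3 of them miR-126b-5p, miR-126a-5p and miR-126b-3p. Of these, miR-126a-5p and miR-126b-3p cannot be told apart in the deposited CPM, so their calls are not separate results. The difference of miR-126b-5p was 1.65 ± 0.34 (adjusted p = 0.0305), while edgeR on the recovered reads called 10 miRNAs, and without mice 3334 and 3335 limma called none at month 4.

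The difference of miR-126b-5p was −0.15 at month 0, 1.14 at month 5 and 1.13 at month 6, with limma adjusted p of 0.882, 0.0879 and 0.814. Without mice 3334 and 3335 all 4 members were among 57 miRNAs called at month 5. The number tested without these mice is not given here, and 606 were tested at that month with all mice. The difference was 1.46 for miR-126b-5p, 1.49 for miR-126a-3p, 1.35 for miR-126a-5p and 1.34 for miR-126b-3p (limma adjusted p = 0.00238, 0.00318, 0.00230 and 0.00230). The calls of miR-126a-5p and miR-126b-3p are again not separate results. With all mice, 0 of 585, 0 of 606 and 0 of 614 miRNAs (0% in each) were called by limma and by edgeR on the recovered reads, with 12.5%, 19.1% and 4.07% at an unadjusted p under 0.05. The differences of miR-126b-3p repeated those of miR-126a-5p, with 1.69 beside 1.70 at month 1, 2.37 beside 2.36 at month 2, 2.10 beside 2.11 at month 3 and 2.49 beside 2.50 at month 4. The counts gave the opposite order for miR-126b-5p. Its 82 counts in CM libraries were 0.340 per 1000000 counts, beside 269 counts or 0.800 per 1000000 in Ctrl libraries, while miR-126a-3p was at 436 and 147 per 1000000. The log2 ratio of miR-126b-5p to miR-126a-3p was lower in CM by 3.37 at month 1 when counts were used (0.5 added, exact permutation, adjusted p = 0.00204), where the deposited CPM gave 0.01. The CM libraries of month 1 held 0 to 2 counts of miR-126b-5p, so the numerator lay near the floor. The denominator, miR-126a-3p, was higher in CM, so this ratio of counts does not by itself show a change of miR-126b-5p.

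Other miRNAs with a listed partner on the opposite DNA strand were examined the same way. RefSeq sequences gave 34 pairs with a reverse-complementary run of 16 bases or more, 6 of them between strands of 1 hairpin name. Of 15 pairs with different hairpin names and at least 1000 counts on the first member, the partner took a larger share in the CPM table than in the counts in 14. The first member is by definition the one with more counts, and some pairs share a member (such as miR-30f), so this number is a description. For miR-126a-3p and miR-126b-5p the partner share was 0.227% of the pair in the counts and 16.5% in the CPM table. For miR-24-3p and miR-3074-5p it was 0.248% and 22.5%, and for miR-142a-3p and miR-142b 0.000843% and 1.57%.

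In the validation cohort the order of the strands turned over with the sampling point. At point 5, the deeply sequenced one, the 12 libraries held 20343 reads of miR-126a-3p, 12736 of miR-126a-5p, 2920 of miR-126b-5p and 12801 of miR-126b-3p, and miR-126b-5p was below miR-126a-3p in all 12. In the 90 libraries of the other points miR-126a-3p had 13 reads in 6 libraries, miR-126a-5p 6 reads in 2 and miR-126b-3p 15 reads in 9, but miR-126b-5p had 3018 reads in 89 libraries. It exceeded miR-126a-3p in 89 of 90 libraries and was the fifth most abundant name there. The most abundant, miR-5099, took 36.7% to 99.1% of the reads of a library. In Ctrl libraries outside point 5 no read of miR-126a-3p or miR-126a-5p was seen among 1038861 reads, which allows up to 2.89 per 1000000. No ratio of the miR-126a strands could therefore be read outside point 5.

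At point 5 the miR-126a 5p/3p ratio did not separate the groups. The 5p share was 42.1% in CM mouse 2684, 28.6% in 2685, 28.8% in 2686, 28.05% in 2700, 29.4% in 2709 and 21.5% in 2718. The Ctrl mice 2683, 2689, 2692, 2702, 2705 and 2720 had 31.6%, 30.1%, 23.7%, 26.6%, 24.7% and 27.3%. The mean log2 ratio of CPM was −1.26 ± 0.45 (SD, n = 6) against −1.42 ± 0.22 (n = 6), a difference of 0.15 (exact permutation p = 0.524, adjusted p = 0.698 over 4 tests). CM mouse 2684 stood far above the rest, with 14448 reads of miR-126a-3p where the other 11 libraries had 343 to 834.

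The ratio of miR-126b-5p to miR-126a-3p at point 5 was lower in CM mice. It was 0.120, 0.180, 0.190, 0.181, 0.216 and 0.154 in the CM mice in the order above and 0.197, 0.195, 0.221, 0.222, 0.203 and 0.262 in the Ctrl mice. CM mouse 2709 lay within the range of the Ctrl mice and the other 5 CM mice lay below it. The log2 difference was −0.34 (exact permutation p = 0.0195, adjusted p = 0.0390). Without mouse 2684 it was −0.24 (exact permutation, adjusted p = 0.0693), and the call was lost in 8 of 12 fits with 1 mouse left out. The ratio of miR-126b-3p to miR-126a-5p ran from 1 to 1.03 in these libraries.

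Outside point 5 the level of miR-126b-5p was the measure left, and it was higher in CM mice. CM libraries held 2661 of its reads in 54 libraries and Ctrl libraries 357 in 36. Of the CM reads, 1171 came from the 5 libraries of point L, where there was no Ctrl library, and 430 from mouse 2684 at point 6. The test below leaves out point L. Averaged over points 1 to 4, 6 and 7 for each mouse, log2(CPM + 1) was 7.97 to 10.6 in the 10 CM mice and 6.90 to 8.73 in the 6 Ctrl mice, so the groups overlapped and 6 CM mice lay above every Ctrl mouse. The means were 9.27 ± 0.94 (SD) and 7.89 ± 0.60, a difference of 1.39 (exact permutation p = 0.00749, adjusted p = 0.0300). The difference ran from 1.19 to 1.55 with each mouse left out, and the exact permutation adjusted p was above 0.05 without Ctrl mouse 2692 (0.0679), 2705 or 2720. Sampling points are not the same in every mouse.

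By point, miR-126b-5p was called at point 2, where 4 miRNAs (2.78%) were called by limma: the difference was 1.88 ± 0.49 (SE, adjusted p = 0.0215), from 166 to 1501 CPM in 10 CM libraries and 126.2 to 291 CPM in 6 Ctrl libraries, with 3 to 26 and 2 to 4 reads behind these values. This call was lost with no filter on low values (limma adjusted p = 0.632, the alternatives running from 0.00889 to 0.632). At point 4 it was first of 339 miRNAs by p, with a difference of 3.22 ± 0.88 and an adjusted p of 0.174 in limma. In the Ctrl group of that point mouse 2689 had 0 of 25958 reads, which allows up to 115.6 per 1000000, and the others had up to 4 reads. At points 1, 3, 5, 6 and 7 the difference was −0.10, 1.09, 0.71, 1.42 and −0.13 with limma adjusted p of 0.915 or more. At points 1, 3, 4, 5, 6 and 7 limma called 0 miRNAs (0% of those tested in each), with 18, 1, 20, 54, 5 and 8 at an unadjusted p under 0.05, and edgeR on the recovered reads also called 0.

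The CM libraries of point L held high shares of miR-126b-5p. Per 1000000 reads it stood at 20826 in mouse 2690, 27251 in 2708, 65960 in 2718, 12080 in 2719 and 35409 in 2731. The libraries behind these values were small, from 2547 reads in mouse 2718 to 16945 in mouse 2731, where 168 and 600 reads were miR-126b-5p. At point 1 the 10 CM libraries were at 262 to 1068 per 1000000 and the 6 Ctrl libraries at 237 to 1086. These shares moved with that of miR-5099, which was 36.7% to 85.9% at point L and 96.2% to 98.5% at point 1. Per 1000000 reads that were not miR-5099, miR-126b-5p was at 25398 to 251783 at point L, beside 12903 to 37398 in CM and 11749 to 30892 in Ctrl libraries of point 1. On this scale the points overlapped only through mouse 2719 (25398), and the other libraries of point L were at 72121 or more. The log2(CPM + 1) difference between CM point L and CM point 1 was 2.66 ± 0.43 (SE, limma adjusted p = 7.13e-05), when 49 of 247 miRNAs (19.8%) were called. In the 5 mice with both points as a replicate block it was 2.62 (limma adjusted p = 0.00405), with 20 miRNAs called. Point L held no Ctrl library, so no comparison with Ctrl mice could be made there. CM libraries of other points also rose above the rest, such as mouse 2684 at point 6 (430 of 15233 reads, 28228 per 1000000), and the highest Ctrl library was mouse 2702 at point 7 (47 of 9203 reads, 5107 per 1000000). Without miR-5099 reads, mouse 2684 at point 6 was the highest library of all, at 299861 per 1000000, and mouse 2702 at point 7 was at 70783.

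**Figure D4:**
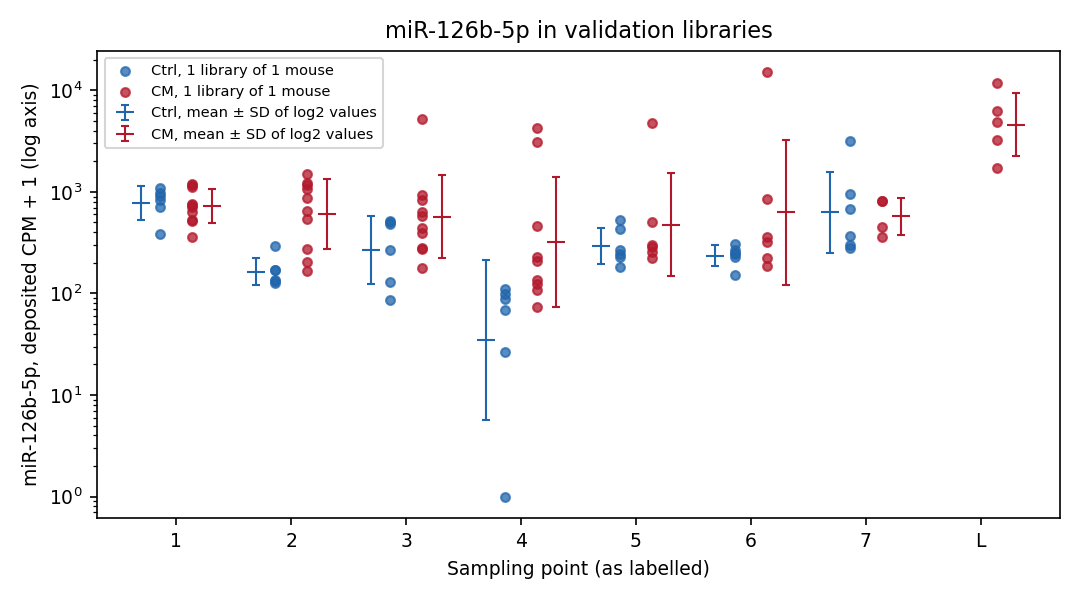
Deposited CPM of miR-126b-5p plus 1 (log y axis) at each labelled sampling point of the validation cohort, with 1 point per library and bars for the mean and SD of log2 values (CM red, Ctrl blue). The 5 CM libraries of point L lie at 1722 to 11813 CPM, and at point 1 both groups lie between 360 and 1194 CPM.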

How the data were processed

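As the study's methods state, the authors removed adapters with cutadapt, aligned reads longer than 16 bases with Bowtie and scaled CPM by TMM in edgeR. The methods name the mm9 build and miRBase 18, whereas the submitters' processing notes name GRCm38, with no tool versions, so the build is not settled, and coordinates here are those of RefSeq (GRCm38.p6). The deposited training counts were made by the authors with mirTOP, at settings not given in the sources used here. The deposited CPM tables of the authors are a scaled signal, not shares of a fixed total. All 124694 training and 33215 validation values above 0 that could be checked were whole reads within 0.01 read, so reads were recovered from them, although 2 validation libraries were left out of that statement.

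Groups, mice and times were taken from the labels, which give 10 CM and 6 Ctrl validation mice. The description of the series gives other numbers. Training libraries were prepared in randomised batches and validation libraries as collected. The miR-126a ratio was log2 of 5p over 3p counts after adding 0.5. Ratios of CPM and limma-trend tests used log2(CPM + 1), which understates changes of low miRNAs, and limma tested miRNAs at 1 CPM or more in as many libraries as the smaller group. Hairpin ratios were tested with edgeR's quasi-likelihood test (strand by group term, library as a block, raw totals as library sizes, mean of 10 counts or more on each strand). Single ratios were tested by exact two-sided permutation over mice, with Benjamini-Hochberg adjustment and a threshold of 0.05. Comparisons over time within a group permuted libraries without the mouse as a block, which was the alternative. Software was R 4.3.3, edgeR 4.0.16, limma 3.58.1, DESeq2 1.42.0, Python 3.11.15, NumPy 2.4.6, SciPy 1.17.1, pandas 2.3.3 and matplotlib 3.10.9. The steps were tested on simulated data.

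The members and lists were chosen with earlier results of these data known. The text names the 4 members in each comparison, the 3 most abundant hairpins of the blood list, called hairpins with the largest differences (up to 3 per direction, of which some are printed), the 5 closest miRNAs and hairpins by Pearson's r, and the most abundant opposite-strand pairs. Alternatives were other scalings and filters, DESeq2, limma or edgeR, the G number, sex, omission of mice 3334 and 3335 or of each mouse, and the mouse as a block. The same animals were sampled over time, so their numbers pair the libraries. Deviations from the group means of the same mouse correlated at −0.011 to 0.704 in CM and 0.233 to 0.490 in Ctrl mice across 3 later times. No libraries were identical, and the smallest chi-square per degree of freedom between training libraries of a group was 260. Libraries of different mice are separate animals, and p-values cover the spread between them. PCR reads carry no molecular identifiers, so intervals and limits cover counting error only.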

Additional observations from a re-analysis of the deposited data

Results flagged for a closer look

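Of 57 groups of 4 to 10 libraries, 7 had a highest or lowest library farther from its neighbour than Dixon's critical value allows, and chance alone gives about 1 in 20. For the log2 5p/3p ratio of miR-126a these were CM mouse 3341 at month 1 (−0.55, nearest −0.71) and Ctrl mouse 3349 at month 2 (−3.48, nearest −1.51), the library with 7 and 83 counts on its strands. For log2(CPM + 1) of miR-126b-5p in the validation cohort they were CM mouse 2731 at point 3 (12.4, nearest 9.86), CM mouse 2684 at point 6 (13.9, nearest 9.73) and at point 5 (12.2, nearest 8.98), Ctrl mouse 2702 at point 2 (8.19, nearest 7.42) and Ctrl mouse 2689 at point 4 (0, nearest 4.74). Behind these values lay 156 of 22711 reads in mouse 2731, 430 of 15233 and 1731 of 5163540 reads in mouse 2684, and no read in mouse 2689. What set these libraries apart was not tested.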

How the results depend on the processing

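Of 1041 values under alternatives, 964 kept their side of the threshold or, for counts, stayed within 1.5 times, and 54 of these changed sign while not called under either setting. The month 2 miR-126a ratio lost its call with deposited CPM (difference 0.775) and did not pass within the G number (0.50), where no p under 0.167 is possible, and without mice 3334 and 3335 month 3 gained a call (0.27) and month 4 lost it (0.43). The ratio of miR-126b-5p to miR-126a-3p changed most when counts replaced the deposited CPM: it reversed at month 0 (−0.95) and month 1 (−3.37) and gained calls at months 2, 3 and 4 (−2.78, −2.77 and −2.34), and miR-126b-3p to miR-126a-5p gained calls at months 3 and 4 (−1.96 and −2.62). With a median of 2 counts per library for each miR-126b strand, these ratios of counts rest on numerators near the floor. Hairpins called moved at month 0 to 2 with DESeq2 and 2 with a mean count filter of 50, at month 1 to 4 with the G number as a term, at month 2 to 10 with TMM, 11 with the filter of 50 and 0 with the G number, at month 3 to 7 with TMM and 1 with the G number (where the miR-126a difference turned to −0.35), and at month 5 to 2 with DESeq2, 1 with TMM, 4 with the filter of 50 and 22 without mice 3334 and 3335. At months 1, 2 and 3 only 4, 2 and 1 CM libraries shared a G number with a Ctrl library, so few were left to compare with that term. The −0.35 of month 3 came from CM mouse 3334 and Ctrl mouse 3339, the only libraries of both groups that shared a G number. miRNAs called in the training CPM moved at month 3 to 74 with no filter, at month 4 to 10 with edgeR and 0 without mice 3334 and 3335, and at month 5 to 57 without these mice. In the validation CPM no filter gave 1, 2, 1, 1 and 1 calls at points 1, 2, 3, 6 and 7. For CM point L against point 1, edgeR gave 28 and the replicate block 20 calls, both chosen after seeing the data, and the replicate block changed no other call of 10 values: for the last CM libraries it gave 53 hairpins.

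With 1 mouse left out, hairpins called ran from 0 to 1 at month 0, 6 to 43 at month 2 (6 without CM mouse 3341, 9 without CM mouse 3368, 43 without Ctrl mouse 3349), 24 to 40 at month 3 (40 without CM mouse 3336) and 0 to 13 at month 5 (13, 1 and 5 without mice 3334, 3335 and 3346). The miR-126a ratio difference ran from 0.40 to 0.83 at month 2, 0.12 to 0.26 at month 3 (gaining a call without CM mouse 3334) and 0.33 to 0.48 at month 4. Its call was lost without any 1 of the 6 CM mice at months 2 and 4. The difference of miR-126b-3p to miR-126a-5p ran from −0.0121 to −0.0078 at month 1 (passing without Ctrl mouse 3339), the validation mean of miR-126b-5p from 1.19 to 1.55, and its point 5 ratio from −0.41 to −0.24 (calls lost without CM mice 2684, 2685, 2700 and 2718 and Ctrl mice 2692, 2702, 2705 and 2720). Leaving out mice was not run for hairpins in the last CM libraries. Other causes of these changes were not tested. Few reads limit the values outside validation point 5.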

Other observations

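Over all training libraries the miRNAs most like miR-126a-3p by Pearson's r of log2 CPM, among 330 compared, were miR-126a-5p (0.94), miR-31-5p (0.88), miR-674-3p (0.78), miR-700-3p (0.77) and miR-132-3p (0.75). For the log2 5p/3p ratio, among the hairpins compared, they were miR-361 (0.69), miR-93 (0.68), miR-425 (0.67), miR-17 (0.65) and miR-872 (0.59). These libraries share mice and depth, and no test was made.

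Outside validation point 5 the opposite-strand partner exceeded the first member in 5 of the 15 pairs, which were chosen after their values were seen. These were miR-126b-5p over miR-126a-3p (3018 and 13 reads), miR-30f over miR-30e-3p (912 and 31) and over miR-30a-3p (912 and 7), miR-219c-5p over miR-219a-1-3p (69 and 60) and miR-3065-5p over miR-338-3p (5 and 2). At point 5 this was so in 2 of 15 pairs, and miR-126b-5p was 12.6% of its pair there and 99.6% elsewhere.

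After month 6 few CM mice remained. The 5p share of miR-126a was 32.9% to 39.9% in 3 CM and 23.5% to 39.4% in 7 Ctrl libraries at month 7. At month 10 it was 32.7% in 1 CM library and 22.7% to 36.7% in 6 Ctrl libraries. The 2 CM libraries labelled T6p5, of mice 3334 and 3336, had 36.7% and 38.3%.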
